A study of Mus musculus with 2 samples.

Results

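Oxidative phosphorylation (OXPHOS) genes were taken from the gene list of the files by symbol, and 93 of the 27998 listed genes met the rule. The 13 genes whose symbols start with mt- are encoded in mitochondrial DNA. The 80 nuclear members were the Nduf genes of complex I (37 genes), the Uqcr genes of complex III (8), the Cox4 to Cox8 genes of complex IV (18) and the Atp5 genes of complex V (17). Complexes were assigned by symbol, so these sets also hold Ndufa4l2, Cox7a2l, Atp5s and Atp5sl, which are not structural subunits. Atp5sl is named Dmac2 in the GENCODE M21 annotation, and its place in complex V rests on the older symbol alone. Of the mitochondrial members, 7 belong to complex I, 1 to complex III, 3 to complex IV and 2 to complex V.

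OXPHOS is the process by which mitochondria make most of the ATP of a hepatocyte. Complexes I, III and IV pass electrons from NADH to oxygen and pump protons across the inner mitochondrial membrane, and complex V, the ATP synthase, uses the returning protons to make ATP. Each of these complexes is assembled from subunits encoded in the nucleus, which are translated in the cytosol and imported, and from subunits encoded and translated inside the mitochondrion.

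The members were followed in scRNA-Seq libraries of hepatocytes from male C57BL/6 mice (C57BL/6J in the study's methods) on a normal diet, for which the labels give an age of 10 to 12 weeks. The first library came from undamaged liver (0 h), and the other from liver collected 48 h after partial hepatectomy (PHx48h), an operation that takes out the larger part of the organ and sets off regrowth of the remnant. Hepatocytes were released by collagenase perfusion, and each library was made from the cells of 1 preparation. There was 1 library per group and no replicate, so no test between the time points was made, and every interval given here is a 95% interval for counting error in these 2 libraries only.

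In this droplet assay a barcode marks a droplet, and a unique molecular identifier (UMI) marks a captured transcript. The undamaged library held 59202 barcodes and 96118593 UMIs, and PHx48h held 1586 barcodes and 18198719 UMIs. The shallowest barcode had 1183 UMIs in the former and 4578 in the latter. Barcodes were divided by the mitochondrial (mt) share of their UMIs into low-mt barcodes (under 2%), intermediate barcodes (2 to 30%) and high-mt barcodes (over 30%), and values are given in that order. At 0 h the 3 classes held 52587, 2745 and 3870 barcodes, and at 48 h they held 522, 299 and 765. Levels of nuclear genes are UMIs per 1000000 non-mt UMIs of a class (CPM), and the total mt share, which defined the classes, is not a finding. The libraries shared 148 barcode sequences, and leaving these out did not turn the direction of any nuclear level. For the undamaged liver the study kept far fewer barcodes as cells after its own filters. Here all were used, how many of the low-mt barcodes at 0 h (median 1422 UMIs) held a cell was not tested, and free RNA was not estimated.

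Markers were summed to describe the barcodes, and such sums cannot tell a cell from free RNA. The 10 hepatocyte markers summed to 107248, 102330.0 and 147835 CPM at 0 h and 87389.8, 88447 and 137711 CPM at 48 h. Single markers went both ways, with 6, 7 and 3 of the 10 higher at 48 h and 4, 3 and 7 lower. Of all genes with a mean of at least 20 CPM, 53.9%, 63.6% and 69.2% were higher. In low-mt and high-mt barcodes the 8 macrophage markers summed to between 24.5 and 42.1 CPM and the 7 endothelial markers to between 25.8 and 56.4 CPM. The intermediate class was different, with 1630 CPM of macrophage and 788 CPM of endothelial markers at 0 h, and 648 and 668 CPM at 48 h. Stellate or stromal markers summed to 29.8, 609 and 24.7 CPM at 0 h and 176, 1161 and 29.98 CPM at 48 h. Of these, Dcn alone was at 12.2 and 268 CPM in low-mt and intermediate barcodes at 0 h, and at 106 and 745 CPM at 48 h. Among the 6 with a mean of at least 20 CPM in intermediate barcodes, 4 were higher at 48 h. Lrat (60.2 CPM at 0 h and 29.8 at 48 h) and Ecm1 (141 and 137 CPM) were lower. The part of the non-hepatocyte markers in the intermediate results was not tested directly. In 1 alternative, barcodes past a minimum count and share of UMIs from any 1 non-hepatocyte list were left out (467 at 0 h and 99 at 48 h). The lists included the haemoglobin genes, and barcodes with fewer such UMIs stayed in. The nuclear OXPHOS log2 ratio of that class was then 0.65, against 0.66 with all barcodes. Erythroid markers, the haemoglobin genes, summed to 162, 70.3 and 3.98 CPM at 0 h and 1.59, 1.86 and 0.784 CPM at 48 h, so RNA of another cell type was higher in the undamaged library in each class. Their part in the OXPHOS result was not tested.

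Nuclear OXPHOS transcripts were higher at 48 h than at 0 h in every class of barcodes. The 80 nuclear members together took 30076, 25543 and 16126 CPM at 0 h and 57670.4, 40268 and 32996 CPM at 48 h. The log2 ratios of 48 h to 0 h were 0.94, 0.66 and 1.03, with intervals of 0.93 to 0.95, 0.65 to 0.67 and 1.02 to 1.04. Depth differed between the libraries, so the ratios were also taken with the deeper barcodes of 0 h, a choice made after seeing the data. With at least 3000 UMIs per barcode, which left 598, 539 and 1106 barcodes at 0 h, they were 0.92, 0.89 and 1.01. With at least 4578 UMIs, the depth of the shallowest barcode at 48 h, 20, 158 and 308 barcodes were left at 0 h and the ratios were 0.72, 0.999 and 1.005. The members spread less than genes at large, with an interquartile range of their log2 ratios of 0.83, 0.66 and 0.86, against 2.04, 1.25 and 1.35 over all genes that passed the same filter. This was not particular to OXPHOS genes. The range was 0.85, 0.62 and 0.83 for genes of the mitochondrial ribosome and 0.62, 0.49 and 0.68 for cytosolic ribosomal protein genes.

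A filter of at least 20 CPM as the mean of both libraries was passed by 70, 70 and 71 of the 80 nuclear members. Of these, 57, 46 and 57 were at least 1.5-fold higher at 48 h, and 2, 0 and 1 were at least 1.5-fold lower. The lower ones were Ndufs1 and Uqcrc2 in low-mt barcodes and Atp5sl, a gene that is not a structural subunit, in high-mt barcodes, all named here after their values were seen. Of the 10 members under the filter in low-mt and intermediate barcodes, 7 were minor forms of complex IV subunits, and the others were Ndufa4l2, Atp5s and Atp5sl. Over all 3888, 5009 and 4513 genes that passed, 39.5%, 38.2% and 47.7% were at least 1.5-fold higher and 31.8%, 17.4% and 13.5% at least 1.5-fold lower. The share of members that were higher therefore lay above this background in each class. The median log2 ratio was 0.99, 0.70 and 1.14 for members and 0.16, 0.31 and 0.52 for all genes.

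The size of these differences depended on the scaling. Scaling by the trimmed mean of M-values (TMM) lowered every log2 ratio by 0.34, 0.34 and 0.56. The nuclear OXPHOS ratios were then 0.60, 0.32 and 0.47. The numbers of members at least 1.5-fold higher were 39, 24 and 35 under TMM, beside 30.8%, 24.7% and 25.9% of all genes. Those at least 1.5-fold lower were 2, 2 and 3, beside 40.1%, 27.6% and 30% of all genes. At any size, 65, 66 and 68 members were higher and 5, 4 and 3 lower in the unadjusted scale, against 62, 57 and 57 higher and 8, 13 and 14 lower under TMM. Over all genes 53.9%, 63.6% and 69.2% were higher at any size and 46.1%, 36.4% and 30.8% lower in the unadjusted scale, against 45.4%, 49.1% and 48.6% higher and 54.6%, 50.9% and 51.4% lower under TMM. A ratio of a single gene between 0 and these shifts thus turned its sign under TMM, and ratios are to be read against the median of all genes.

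**Figure D1:**
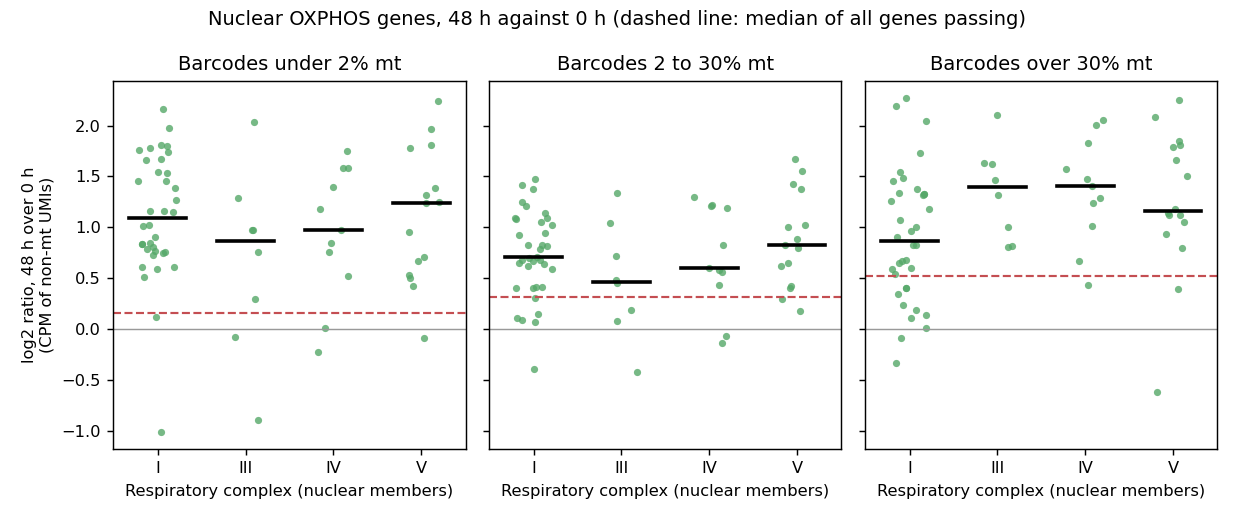
Log2 ratio of 48 h to 0 h (CPM of non-mt UMIs) for each nuclear OXPHOS gene with a mean of at least 20 CPM, by complex (x axis) and barcode class (panels). Each point is 1 gene, black bars are the medians of a complex, and the dashed line is the median of all genes that passed (0.16, 0.31 and 0.52), above which most members lie.

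Of the members, 70 passed the filter in all 3 classes, and 62 of them were higher at 48 h in each class. None was lower in each class, and 8 were mixed. At least 1.5-fold higher in each class were 38 of the 70. Of the 3569 genes that passed in all classes, 47.5% were higher in each, 26.2% were lower in each, 30.4% were at least 1.5-fold higher in each and 11.3% at least 1.5-fold lower in each. The members present in all classes thus leaned further to the 48 h side than genes at large.

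Divided by complex, all 4 sets were higher at 48 h, by amounts that depended on the scaling. The median of all genes was 0.16, 0.31 and 0.52 in the unadjusted scale. Under TMM complex I fell to 0.11 in high-mt barcodes, and complexes III and IV fell to 0.21 and 0.24 in intermediate barcodes. No complex turned below 0. Nuclear complex I genes summed to 8644, 7739 and 6310.1 CPM at 0 h and 17678, 12027 and 10014 CPM at 48 h (log2 ratios 1.03, 0.64 and 0.67). Complex III genes summed to 4746, 3846 and 2119 CPM at 0 h and 8348, 5614 and 4737 CPM at 48 h (0.81, 0.55 and 1.16). Complex IV genes summed to 8668, 7135 and 3699 CPM at 0 h and 14947, 10640.1 and 8435 CPM at 48 h (0.79, 0.58 and 1.19). Complex V genes summed to 8017, 6824 and 3997 CPM at 0 h and 16697, 11987 and 9809.5 CPM at 48 h (1.06, 0.81 and 1.295). Complex V had the highest of the 4 ratios in each class, and in low-mt barcodes its interval (1.046 to 1.071) lay just above that of complex I (1.020 to 1.045). This order in low-mt barcodes turned when Ndufa4, a subunit first assigned to complex I and found with complex IV, was counted with complex IV, which gave complex I a ratio of 1.096. In high-mt barcodes complex I stood below the others at 0.67, and its interval (0.65 to 0.69) did not overlap that of complex III (1.13 to 1.19).

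**Figure D2:**
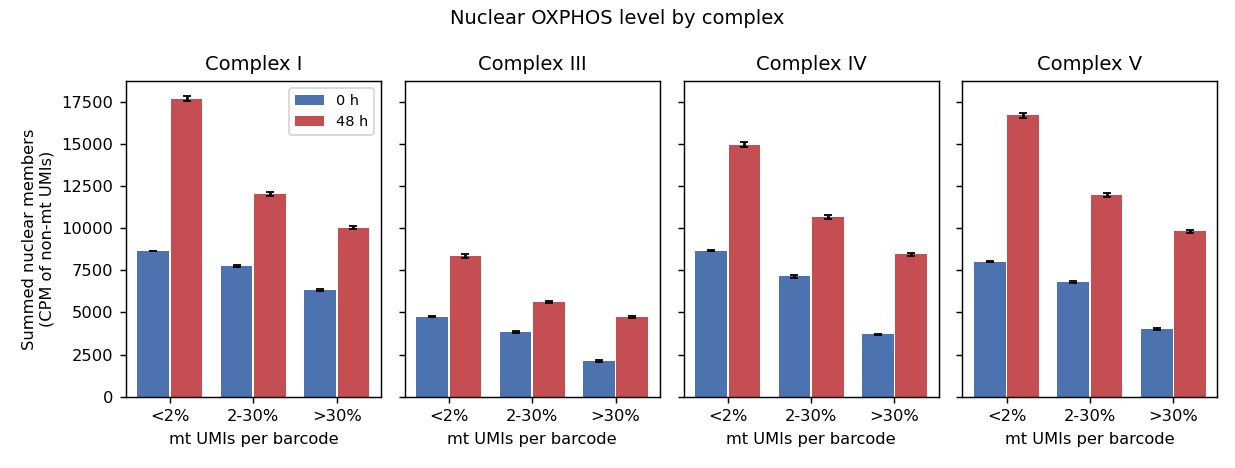
Summed level of the nuclear genes of each complex (y axis, CPM of non-mt UMIs) in the 3 barcode classes (x axis) at 0 h and 48 h. Bars are pooled values of 1 library each and error bars are 95% Poisson intervals, and in every pair the 48 h bar is the higher one.

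Complex I, the NADH dehydrogenase, takes electrons from NADH and passes them to ubiquinone. Ndufb4, an accessory subunit of its membrane arm (chr16:37647170-37654453, minus strand), had the highest mean ratio in the complex. It was at 105, 94.4 and 35.8 CPM at 0 h and 469.7, 262 and 164 CPM at 48 h. The log2 ratios were 2.16, 1.47 and 2.19 (95% interval 2.08 to 2.24 in low-mt barcodes), so the 48 h level was more than 2-fold above the 0 h level in each class. Ndufs4, a small accessory subunit needed for a stable NADH-oxidizing module, was at 82.2, 69.7 and 37.2 CPM at 0 h and 278, 180.4 and 179.9 CPM at 48 h (log2 ratios 1.76, 1.37 and 2.27). Ndufa8, an accessory subunit of the intermembrane face, was at 135, 114 and 48.5 CPM at 0 h and 392, 265 and 199 CPM at 48 h (1.54, 1.21 and 2.04). All 3 were at least 2-fold higher at 48 h in every class.

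At the other end of complex I stood Ndufs1, the large iron-sulfur subunit of the NADH-oxidizing module (chr1:63143596-63176833, minus strand). Its level was 95.4, 89.02 and 51.2 CPM at 0 h and 47.2, 67.9 and 77.8 CPM at 48 h. The log2 ratios of -1.02, -0.39 and 0.60 changed direction between classes, lower at 48 h in low-mt and intermediate barcodes and higher in high-mt barcodes, where TMM brought the ratio close to 0. Ndufa3, a small membrane-arm subunit, was at 450.3, 427 and 404 CPM at 0 h and 678, 460.1 and 321 CPM at 48 h (0.59, 0.11 and -0.33), and Ndufa4 was at 1128, 949 and 864 CPM at 0 h and 1608, 1011 and 811 CPM at 48 h (0.51, 0.09 and -0.09). Both were thus higher at 48 h in low-mt barcodes and lower in high-mt barcodes, and in intermediate barcodes their ratios fell below 0 under TMM.

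Ndufv1, the core subunit that holds the flavin accepting electrons from NADH, lay between these ends. It was at 122, 107 and 99.7 CPM at 0 h and 185, 173 and 291 CPM at 48 h. Its ratios of 0.61, 0.70 and 1.55 were highest in high-mt barcodes.

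Complex III passes electrons from ubiquinol to cytochrome c. Uqcrb, known as a ubiquinone-binding subunit (chr13:66900617-66905378, minus strand), was at 318, 269.6 and 99.5 CPM at 0 h and 1302, 679 and 426 CPM at 48 h. Its log2 ratios of 2.03, 1.33 and 2.099 were the highest of the 8 members in each class. Uqcr10, a small subunit, was at 566, 452 and 247 CPM at 0 h and 1383, 932 and 761 CPM at 48 h (1.29, 1.04 and 1.62), and Uqcrh, the hinge subunit at cytochrome c1, was at 551, 466 and 221 CPM at 0 h and 1083, 765 and 609.8 CPM at 48 h (0.97, 0.71 and 1.47). These small subunits were higher at 48 h in each class, under TMM as well. Uqcrh has 2 named pseudogenes, with which it may share reads.

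The 2 large core proteins of complex III had the lowest ratios of its members in low-mt and intermediate barcodes, but not in high-mt barcodes. Uqcrc2 (chr7:120635176-120659524, plus strand) was at 295, 227 and 86.2 CPM at 0 h and 158, 169 and 215 CPM at 48 h. The 48 h level was lower in low-mt barcodes (log2 ratio -0.89, 95% interval -1.03 to -0.77) and in intermediate barcodes (-0.43), and higher in high-mt barcodes (1.32, 95% interval 1.17 to 1.48). Uqcrc1, the other core protein, was at 289.7, 245 and 182 CPM at 0 h and 275, 259.8 and 366 CPM at 48 h (-0.08, 0.08 and 1.005), close to equal in the first 2 classes, with the intermediate ratio below 0 under TMM, and higher at 48 h in the third. Uqcr11, another small subunit, was at 1136, 894 and 504 CPM at 0 h and 1388, 1013 and 879 CPM at 48 h (0.29, 0.18 and 0.80), and its first 2 ratios fell below 0 under TMM. Uqcrq, also a small subunit, had ratios of 0.76, 0.48 and 0.82, so that in high-mt barcodes both lay below the core proteins. Uqcrfs1, the Rieske iron-sulfur protein, was at 235, 211 and 79.95 CPM at 0 h and 461, 289 and 248 CPM at 48 h and was higher at 48 h in each class (0.97, 0.45 and 1.63).

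Complex IV, cytochrome c oxidase, reduces oxygen to water, and its nuclear subunits surround the mitochondrially encoded catalytic core. Cox6b1, which lies on the face that docks cytochrome c, was at 499, 419 and 187 CPM at 0 h and 1677, 975 and 749 CPM at 48 h (log2 ratios 1.75, 1.22 and 2.004). Cox5a, an early-assembling subunit on the matrix face, was at 382, 324 and 154 CPM at 0 h and 1144, 797 and 637 CPM at 48 h (1.58, 1.298 and 2.05), and Cox7a2, the broadly expressed form of subunit 7a, was at 628, 513 and 235 CPM at 0 h and 1648, 1170.3 and 837 CPM at 48 h (1.39, 1.19 and 1.83). All 3 were at least 2-fold higher at 48 h in each class.

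Cox6a1, the broadly expressed form of subunit 6a, had the lowest mean ratio of complex IV. It was at 1045, 914 and 552 CPM at 0 h and 894, 871 and 876 CPM at 48 h (-0.23, -0.07 and 0.67), slightly lower at 48 h in the first 2 classes and higher in high-mt barcodes. Cox7c, a small subunit that spans the membrane, was at 1963, 1438 and 351 CPM at 0 h and 1976, 1304 and 931 CPM at 48 h (0.01, -0.14 and 1.41). In low-mt barcodes the levels of Cox7c at both time points were nearly equal, whereas TMM placed the 48 h level below that of 0 h. Cox4i1, the regulatory subunit 4, was at 1004, 957 and 1069.8 CPM at 0 h and 1808, 1451 and 1438 CPM at 48 h (0.85, 0.60 and 0.43), and only its high-mt ratio turned below 0 under TMM.

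Several complex IV subunits exist as tissue-specific forms, and these were nearly absent from both libraries. Cox4i2, Cox6a2 and Cox8b, forms of lung or muscle, reached at most 4.03 CPM in any class, and no UMI of Cox7b2 or Cox8c was counted in either library. Cox7a1, the heart and muscle form of subunit 7a, stayed between 1.56 and 7.97 CPM. Ndufa4l2, the hypoxia-induced relative of Ndufa4, stayed at or below 5.27 CPM. Cox8a was at 1054, 809.6 and 295 CPM at 0 h and 1508, 1189.8 and 819.8 CPM at 48 h and was higher at 48 h in each class (0.52, 0.56 and 1.47).

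Cox6b2, the form of subunit 6b known from testis (chr7:4751792-4753094, minus strand), was the exception among the tissue-specific forms. It gave 27, 3 and 1 UMIs at 0 h, or 0.343, 0.536 and 0.173 CPM, and 117, 78 and 69 UMIs at 48 h, or 37.3, 24.2 and 13.5 CPM. The log2 ratio was 6.77 (95% interval 6.15 to 7.43) in low-mt barcodes, 5.49 (95% interval 3.89 to 7.803) in intermediate barcodes and 6.29 (95% interval 3.76 to 11.61) in high-mt barcodes, the latter with only 1 UMI at 0 h. The 264 UMIs at 48 h came from 208 barcodes, with at most 7 UMIs in 1 barcode. Its mean over both libraries did not pass the filter of 20 CPM in any class.

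Promoters of complex IV members at opposite ends of the range are shown because both hold a motif bound by ETS family factors such as GABPA, a known regulator of OXPHOS genes. The sequences are RefSeq promoters of GRCm38.p6 on the minus strand, from 250 bases before to 50 bases after the start, for Cox6a1 at chr5:115348909-115349208 and for Cox6b1 at chr7:30626065-30626364. Capitals mark the ETS motif CCGGAAG, here as its reverse complement CTTCCGG, and in Cox6a1 also the palindromic motif of NRF1, another known regulator of these genes, which shares no base with it.
Cox6a1: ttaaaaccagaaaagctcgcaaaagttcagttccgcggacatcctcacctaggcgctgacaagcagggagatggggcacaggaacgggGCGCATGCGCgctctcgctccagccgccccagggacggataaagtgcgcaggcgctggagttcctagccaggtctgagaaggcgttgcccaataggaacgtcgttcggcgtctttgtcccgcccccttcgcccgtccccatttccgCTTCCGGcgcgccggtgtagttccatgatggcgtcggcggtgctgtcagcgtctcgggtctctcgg
Cox6b1: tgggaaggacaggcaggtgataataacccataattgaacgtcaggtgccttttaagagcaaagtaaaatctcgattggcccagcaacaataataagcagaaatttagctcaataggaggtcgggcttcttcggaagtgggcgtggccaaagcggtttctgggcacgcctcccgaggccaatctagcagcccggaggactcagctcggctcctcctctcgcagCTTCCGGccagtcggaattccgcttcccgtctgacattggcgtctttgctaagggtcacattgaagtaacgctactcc
Both motifs were searched as exact letters on both strands in the promoters of the 66 nuclear members with an entry. A gene was counted once if any of its promoter windows held the motif. The ETS motif was found in 14 of the 66 (21.2%) and in 9.93% of all 27025 genes with a promoter. The NRF1 motif was found in 5 members (7.58%), which were Ndufa11, Uqcrc1, Cox6a1, Atp5g2 and Atp5k, and in 1.07% of all genes with a promoter. Among members that passed the filter, the median of the mean log2 ratio was 1.04 with the ETS motif and 0.997 without it, and 0.898 with the NRF1 motif and 1.02 without it. A match describes the letters of the window and nothing more.

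Complex V makes ATP with a rotating membrane ring and a catalytic head. Atp5j, coupling factor 6 of the peripheral stalk (chr16:84827866-84835625, minus strand), was at 370.3, 317 and 117 CPM at 0 h and 1269, 850.4 and 559 CPM at 48 h (log2 ratios 1.78, 1.43 and 2.26). Atp5h, stalk subunit d, was at 233, 218 and 164 CPM at 0 h and 1104, 694 and 466 CPM at 48 h (2.24, 1.67 and 1.51). The stalk subunit Atp5f1 was nearer to the other end, at 435, 370.2 and 189.8 CPM at 0 h and 631, 489 and 392 CPM at 48 h (0.53, 0.40 and 1.05), so that stalk members differed among themselves. Atp5e, the small epsilon subunit of the central stalk, had the lowest mean ratio of the complex, at 1213, 981 and 643 CPM at 0 h and 1711, 1111 and 843 CPM at 48 h (0.50, 0.18 and 0.39), and its intermediate and high-mt ratios fell below 0 under TMM.

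The membrane ring of complex V is built from subunit c, a single mature protein encoded by 3 genes. Atp5g1 was at 475, 386 and 201 CPM at 0 h and 1850.5, 1133 and 692 CPM at 48 h (1.96, 1.55 and 1.79), and Atp5g2 was at 216, 214 and 77.2 CPM at 0 h and 757, 556 and 328 CPM at 48 h (1.81, 1.38 and 2.09). Atp5g3 was at 809.9, 666 and 374 CPM at 0 h and 762, 815 and 849 CPM at 48 h (-0.09, 0.29 and 1.18). In low-mt barcodes Atp5g1 and Atp5g2 were thus more than 3-fold higher at 48 h and Atp5g3 was not, while in high-mt barcodes all 3 were more than 2-fold higher. The intermediate ratio of Atp5g3 fell below 0 under TMM.

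The catalytic head is formed by the alpha and beta subunits. Atp5a1, the alpha subunit, was at 498, 446 and 227 CPM at 0 h and 666, 701 and 717 CPM at 48 h. Atp5b, the beta subunit, was at 689, 603 and 358 CPM at 0 h and 1124, 1114 and 1251 CPM at 48 h. For both genes the log2 ratio increased with the mt share of the class, from 0.42 to 0.65 and 1.66 for Atp5a1 and from 0.71 to 0.89 and 1.81 for Atp5b. Their high-mt ratios remained above 1 under TMM.

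Within each library, nuclear OXPHOS transcripts took a smaller share of the non-mt UMIs in high-mt than in low-mt barcodes. The log2 ratio of high-mt to low-mt barcodes was -0.90 at 0 h and -0.81 at 48 h. At 0 h 61 of 70 members that passed were lower in high-mt barcodes, against 59.5% of all genes, and 49 were at least 1.5-fold lower, against 30.1%. At 48 h 63 of 71 were lower, against 40.2% of all genes, and 53 were at least 1.5-fold lower, against 22.3%. The median over all genes was -0.19 at 0 h and 0.30 at 48 h. Other transcripts moved with this comparison. Cytosolic ribosomal protein transcripts had log2 ratios of -1.502 and -1.05, and hepatocyte markers had 0.46 and 0.66, at 0 h and 48 h. The nuclear-retained RNAs Malat1 and Neat1 together had 1.37 and 0.61, and immediate early and heat shock genes of the dissociation response had 1.84 and 1.97. The part of these in the result was not tested.

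At 0 h the complexes differed in this respect. The log2 ratio of high-mt to low-mt barcodes was -0.45 for complex I, -1.16 for complex III, -1.23 for complex IV and -1.004 for complex V. Cox7c had the lowest value among the members, at -2.48, and Ndufa11 and Ndufa13, accessory subunits of complex I, had the highest, at 0.75 and 0.62. At 48 h the complexes lay close together, between -0.83 and -0.77.

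At 48 h a few members were higher in high-mt barcodes, named here after their values were seen. They included Ndufs1 (0.72), Ndufv1 (0.65), Uqcrc2 (0.44), Uqcrc1 (0.41), Atp5g3 (0.16), Atp5b (0.15) and Atp5a1 (0.11). At 0 h each of these named genes was lower in high-mt barcodes, from -1.77 for Uqcrc2 to -0.29 for Ndufv1. Other core subunits were lower in high-mt barcodes at 48 h, such as Ndufv2 (-1.06), Uqcrfs1 (-0.89), Ndufs8 (-0.69), Ndufs7 (-0.54) and Ndufs3 (-0.51), so the direction was not shared by the core subunits.

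In finer steps of mt share, the nuclear OXPHOS level at 0 h was 30114 CPM in barcodes with 0 to 1% mt UMIs and 15436 CPM in those with 50 to 70%. At 48 h the same steps gave 57977 and 31043 CPM. The 48 h level was above the 0 h level in each of the 9 steps. The last step at 0 h, over 70%, held only 18 barcodes and broke the order with 24533 CPM, at an interval of 21080 to 28391 CPM. At 48 h the order broke in places too, with 38798 CPM at 5 to 10% and 39992 CPM at 10 to 20%, and with 31043 CPM at 50 to 70% and 32742 CPM over 70%. The counting intervals of neither pair overlapped, but they leave out the spread between barcodes. At 48 h the variance between barcodes was 1.95 and 1.84 times that of binomial sampling in intermediate and high-mt barcodes. Whether these breaks exceed that spread was not tested.

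**Figure D3:**
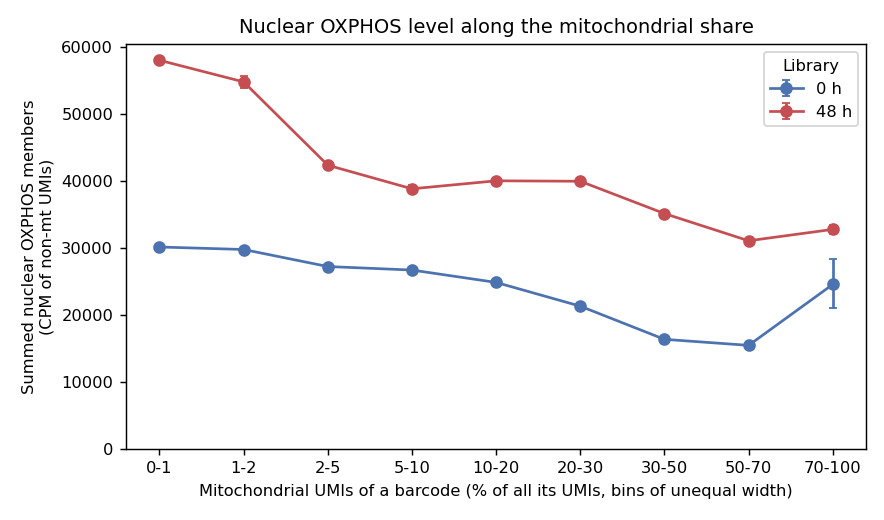
Summed level of the 80 nuclear OXPHOS genes (y axis, CPM of non-mt UMIs) in barcodes grouped by mt share (x axis, % of all UMIs of a barcode, steps of unequal width) at 0 h and 48 h. Points are pooled values with 95% Poisson intervals, and the 48 h line lies above the 0 h line at each step, from 57977 against 30114 CPM at the left end.

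Single barcodes were compared at an equal depth of 500 non-mt UMIs drawn from each. At 0 h a low-mt barcode held a mean of 15.0 nuclear OXPHOS UMIs (5th to 95th percentile 9 to 22), and at 48 h it held 28.3 (19 to 38). Intermediate barcodes held 13.3 and 20.98, and high-mt barcodes held 7.95 and 16.6, with 75 shallower high-mt barcodes of 0 h left out. Without thinning, the median share of the non-mt UMIs was 2.99, 2.70 and 1.54% at 0 h and 5.68, 4.14 and 3.22% at 48 h. The variance between low-mt barcodes at 0 h was 1.06 times that of binomial sampling. It was 1.31 and 1.44 times in the other classes at 0 h, and 1.31, 1.95 and 1.84 times at 48 h.

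The 13 mitochondrial genes are transcribed as long precursors and cut into separate messengers, so their composition was compared within the mt UMIs of each class. Complex IV genes took a smaller share of the mt UMIs at 48 h and complex V genes a larger one. Complex IV genes made up 47.5, 49.5 and 53.6% of mitochondrial UMIs at 0 h and 40.97, 45.1 and 43.3% at 48 h. Complex V genes made up 20.4, 19.6 and 17.3% of mitochondrial UMIs at 0 h and 23.6, 22.4 and 22.9% at 48 h, and complex I genes 23.4, 22.4 and 20.8% of mitochondrial UMIs at 0 h and 26.6, 23.6 and 24.999% at 48 h. The single complex III gene mt-Cytb, cytochrome b, made up 8.72, 8.44 and 8.26% of mitochondrial UMIs at 0 h and 8.87, 8.89 and 8.77% at 48 h, the smallest shift of the 4. The directions for complexes I, III and IV were not stable in the intermediate class. With each barcode weighted alike, the differences there were -0.36, -0.54 and 0.60 percentage points for complexes I, III and IV, against 1.17, 0.45 and -4.40 points in pooled UMIs, and that of complex V was 0.30 against 2.78 points. The mt-Cytb difference also turned in the other classes, to -0.053 points over single barcodes in low-mt barcodes (0.15 in pooled UMIs) and to -0.49 points in high-mt barcodes with at least 4578 UMIs (0.51).

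The sizes of the complex IV and V differences moved with the choice of barcodes. In low-mt barcodes they were -3.88 and 1.77 points with a lower limit of 5% mt, against -6.58 and 3.20. In intermediate barcodes they were -1.39 and 1.77 points with an upper limit of 20% mt and -9.21 and 5.04 points with one of 50%. In high-mt barcodes they were -7.27 and 3.52 points with at least 3000 UMIs per barcode and -4.11 and 1.29 points with at least 4578 UMIs, against -10.3 and 5.62.

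Single genes within a complex did not move together. Within complex IV the difference was largest for mt-Co3 in each class, which made up 22.1, 20.6 and 21.2% of mitochondrial UMIs at 0 h and 17.5, 15.5 and 14.96% at 48 h (log2 ratios -0.34, -0.41 and -0.51). The catalytic subunit gene mt-Co1 made up 15.9, 17.6 and 19.7% of mitochondrial UMIs at 0 h and 13.7, 18.7 and 16.9% at 48 h, lower at 48 h in low-mt and high-mt barcodes and higher in intermediate ones, where barcodes with at least 3000 UMIs held 18.7% at both time points. The third gene, mt-Co2, made up 9.55, 11.3 and 12.6% of mitochondrial UMIs at 0 h and 9.78, 10.9 and 11.5% at 48 h and differed by at most 1.17 percentage points.

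The complex I genes also diverged. Of these, mt-Nd1, the first gene of the series along the genome (chrM:2751-3707, plus strand), made up 7.84, 8.27 and 8.17% of mitochondrial UMIs at 0 h and 12.4, 9.97 and 11.8% at 48 h (log2 ratios 0.66, 0.27 and 0.54). Its neighbour mt-Nd2 made up 6.47, 5.39 and 4.22% of mitochondrial UMIs at 0 h and 5.16, 4.31 and 4.36% at 48 h. The count of mt-Nd1 per 1000 UMIs of mt-Nd2 was therefore 1212, 1534 and 1937 at 0 h and 2409, 2314 and 2719 at 48 h, higher at 48 h in each class. The share of mt-Nd4 was 5.91, 5.86 and 5.33% of mitochondrial UMIs at 0 h and 6.11, 6.78 and 6.40% at 48 h, and that of mt-Nd3 was 1.89, 1.71 and 1.92% of mitochondrial UMIs at 0 h and 1.93, 1.72 and 1.63% at 48 h. The share of mt-Nd5 was lower at 48 h in each class, at 0.758, 0.690 and 0.651% of mitochondrial UMIs at 0 h and 0.597, 0.543 and 0.500% at 48 h.

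The light-strand gene mt-Nd6 was counted rarely, with 212, 230 and 1026 UMIs at 0 h and 8, 125 and 465 at 48 h. Its log2 ratios of share were 0.16, -0.69 and -1.48, and in low-mt barcodes the interval included 0. Its annotated end overlaps that of mt-Nd5 on the opposite strand, and whether counting used strand is not given in the sources used here.

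The complex V gene mt-Atp6, subunit a of the proton channel, made up 19.4, 18.9 and 16.97% of mitochondrial UMIs at 0 h and 23.3, 22.3 and 22.8% at 48 h (log2 ratios 0.27, 0.23 and 0.43). Its downstream neighbour mt-Co3 was lower in share, so mt-Atp6 per 1000 UMIs of mt-Co3 was 876, 919 and 799 at 0 h and 1332, 1442 and 1526 at 48 h. The gene directly upstream, mt-Atp8, encodes a small membrane subunit and lies on the same messenger as mt-Atp6. It made up 0.972, 0.691 and 0.339% of mitochondrial UMIs at 0 h and 0.224, 0.123 and 0.114% at 48 h, and its log2 ratios of -2.12, -2.49 and -1.57 were the lowest of the 13 genes in each class. In high-mt barcodes its interval (-1.61 to -1.53) lay within that of mt-Nd6 (-1.64 to -1.32), so their order there was not resolved. At 48 h the low-mt value of mt-Atp8 rested on 36 UMIs. With at least 3000 UMIs per barcode the log2 ratios of mt-Atp8 were -2.17, -2.53 and -2.04. Those of mt-Atp6 were 0.27, 0.20 and 0.27, and those of mt-Nd1 were 0.67, 0.31 and 0.57. With at least 4578 UMIs mt-Atp8 gave -2.01, -2.50 and -2.19. At that depth mt-Atp6 gave 0.29, 0.09 and 0.11, and mt-Nd1 gave 0.76, 0.31 and 0.55. There mt-Nd2, mt-Co2, mt-Nd3 and mt-Cytb changed direction in high-mt barcodes (-0.15, 0.05, 0.03 and -0.08). So did mt-Co2 in the other classes (-0.13 and 0.04), and mt-Nd4l and mt-Nd6 in low-mt barcodes, on 2 and 1 UMIs at 0 h.

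**Figure D4:**
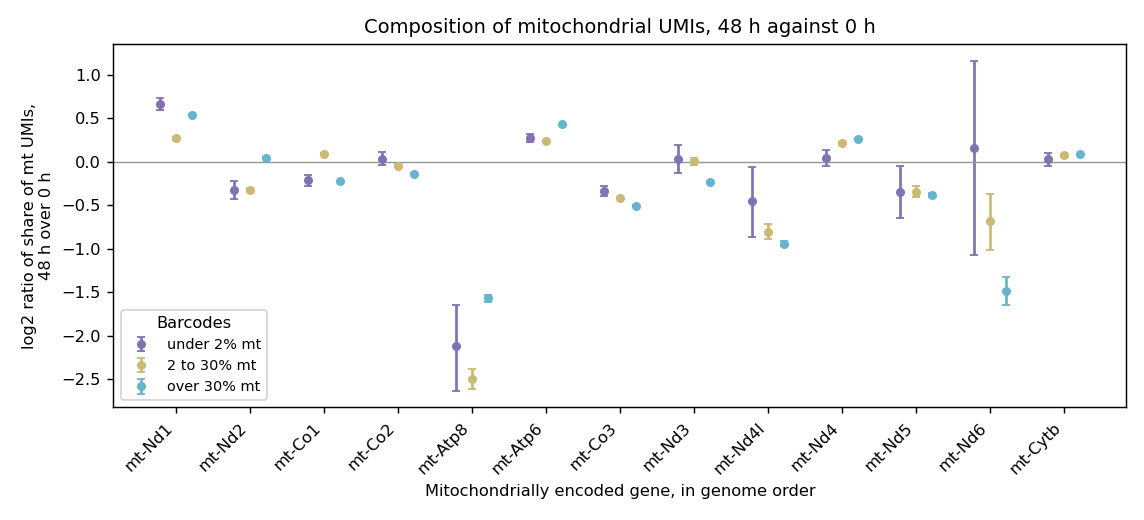
Log2 ratio of 48 h to 0 h of the share of mt UMIs (y axis) for the 13 mitochondrial genes in genome order (x axis), with 1 point per barcode class and 95% intervals for counting error. The gene mt-Atp8 lies lowest in each class (-2.12, -2.49 and -1.57), in high-mt barcodes within the interval of mt-Nd6, and mt-Nd1 and mt-Atp6 lie above 0 in each.

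The overlaps between the paired genes are shown because they limit how a read can be assigned. The last 120 bases of mt-Atp8 (chrM:7850-7969) and of mt-Nd4l (chrM:10054-10173), both on the plus strand, are given from the GENCODE M21 transcripts of GRCm38. Capitals mark the 43 and 7 bases that the annotation shares with the next gene, mt-Atp6 and mt-Nd4.
mt-Atp8: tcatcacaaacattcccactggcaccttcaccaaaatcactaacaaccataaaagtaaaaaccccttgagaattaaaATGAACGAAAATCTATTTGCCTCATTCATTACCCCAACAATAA
mt-Nd4l: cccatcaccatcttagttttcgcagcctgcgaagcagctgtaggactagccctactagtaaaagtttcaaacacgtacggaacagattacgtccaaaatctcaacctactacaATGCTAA
Per 1000 UMIs of mt-Atp6 there were 50.1, 36.5 and 19.96 UMIs of mt-Atp8 at 0 h and 9.59, 5.51 and 4.999 at 48 h. Per 1000 UMIs of mt-Nd4 there were 76.2, 84.7 and 97.0 UMIs of mt-Nd4l at 0 h and 54.0, 41.9 and 42.0 at 48 h. In both pairs the upstream gene was counted less often at 48 h relative to its partner, and within 0 h mt-Atp8 was also counted less often the higher the mt share of the class. As each pair lies on 1 messenger, a difference in these counts is not a difference between separate transcripts, and reads of the shared bases cannot be told apart.

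Other genes of the pathway were examined as lists, for the same 3 classes. Complex II, succinate dehydrogenase, which is wholly encoded in the nucleus and feeds electrons from the citric acid cycle, had log2 ratios of 0.20, 0.21 and 0.87 for its 4 genes together, below those of the other complexes in low-mt and intermediate barcodes, where TMM turned both below 0. Its flavoprotein gene Sdha was at 377, 317 and 156 CPM at 0 h and 193, 249 and 308 CPM at 48 h (-0.97, -0.35 and 0.98), a change of direction like that of Ndufs1 and Uqcrc2, while Sdhb, the iron-sulfur subunit, was at 154, 141 and 107 CPM at 0 h and 352, 249 and 264 CPM at 48 h (1.196, 0.82 and 1.304). Cycs, the electron carrier cytochrome c, was at 128, 95.6 and 29.9 CPM at 0 h and 660.4, 341 and 220.2 CPM at 48 h (2.37, 1.83 and 2.88), and Cyc1, cytochrome c1 of complex III, was at 283, 250.3 and 287 CPM at 0 h and 406, 339.8 and 382 CPM at 48 h (0.52, 0.44 and 0.41), with a high-mt ratio below 0 under TMM.

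The mitochondrial ribosome, which translates the 13 mitochondrial messengers, is built from nuclear-encoded proteins. Its genes were higher at 48 h for 67 of 68, 69 of 70 and 60 of 61 members that passed, beside 53.9%, 63.6% and 69.2% of all genes, with log2 ratios of the sum of 1.39, 1.07 and 1.21. At least 1.5-fold higher were 61, 57 and 51 of these, beside 39.5%, 38.2% and 47.7% of all genes. The 33 assembly factors gave 0.86, 0.58 and 0.63, with 9 of 18, 7 of 15 and 8 of 14 that passed at least 1.5-fold higher, a share near that of all genes. At any size 6, 3 and 2 of them were lower at 48 h, beside 46.1%, 36.4% and 30.8% of all genes. Their lowest log2 ratio was -2.19, in high-mt barcodes. The 13 citric acid cycle genes gave 0.72, 0.77 and 1.43, with 7 of 13, 8 of 13 and 10 of 12 at least 1.5-fold higher. At any size 3, 1 and 0 of these were lower at 48 h, beside the same 46.1%, 36.4% and 30.8% of all genes. Their lowest log2 ratio was -0.97, in low-mt barcodes. Fh1, fumarase, named here as the extreme of the list, was at 60.9, 48.98 and 31.3 CPM at 0 h and 307, 197 and 196 CPM at 48 h. Its log2 ratios of 2.335, 2.005 and 2.65 were the highest of the citric acid cycle genes that passed, whose medians were 0.65, 0.62 and 1.34. The 4 carrier genes gave 0.89, 0.83 and 1.43.

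Of the regulators of mitochondrial gene expression, 12 of 13 names were found and 3, 4 and 5 passed the filter. Their sum had log2 ratios of 0.84, 0.49 and 0.96, whereas the median of the genes that passed was -0.03, -0.18 and 0.80, below 0 in the first 2 classes. The sum followed Slirp, an RNA-binding partner of LRPPRC that stabilizes mitochondrial messengers, at 71.9, 67.03 and 20.8 CPM at 0 h and 338, 197 and 125 CPM at 48 h (2.23, 1.55 and 2.59). Lrpprc itself was at 52.3, 64.2 and 42.1 CPM at 0 h and 51.3, 63.2 and 92.3 CPM at 48 h (-0.03, -0.02 and 1.13), and Tfam, which packages mitochondrial DNA and starts its transcription, was at 63.9, 57.9 and 38.1 CPM at 0 h and 45.3, 45.6 and 29.6 CPM at 48 h (-0.50, -0.35 and -0.36). Tfam was lower at 48 h in each class, in contrast to most OXPHOS members.

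Other lists differed between the time points as well. Cytosolic ribosomal protein transcripts took 45009.8, 47027 and 15888 CPM at 0 h and 139858, 121692 and 67708 CPM at 48 h, with log2 ratios of 1.64, 1.37 and 2.09, above those of nuclear OXPHOS in each class. Malat1 and Neat1, which are retained in the nucleus, gave -0.04, -1.42 and -0.80, and immediate early and heat shock genes of the dissociation response gave 1.01, 0.90 and 1.14 at sums of at most 324 CPM. Their part in the OXPHOS result was not tested.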

How the data were processed

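UMIs were counted in scRNA-Seq libraries of hepatocytes from undamaged liver and from PHx48h, with 1 library per group taken from the time point in the labels. The authors deposited unnormalized UMI counts per gene and barcode, made with Cell Ranger on the build mm10 according to the submitters' processing notes. The Cell Ranger version, the annotation and the use of strand are not given in the sources used here.

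All deposited barcodes were used, divided at 2% and 30% mt UMIs. No doublet caller was run, and leaving out the 5% deepest barcodes of each class was an alternative. UMIs were summed per class and library and divided by the non-mt UMIs (CPM). Intervals were exact Poisson for CPM, exact binomial (Clopper-Pearson) for shares and conditional binomial for ratios, at 95%, and they cover counting error only. UMIs of 1 library are not replicates, so no p-value was computed. In place of a test, a difference of at least 1.5-fold was counted among genes with a mean of at least 20 CPM, without a pseudocount. Median depth was 1436 UMIs per barcode at 0 h and 6838.5 at 48 h.

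Members and lists were chosen with earlier results of these data known. Named genes were all mt genes, the 3 nuclear members with the highest and the 3 with the lowest mean log2 ratio over the classes in each complex, 10 core subunits and 7 isoform families. One of these genes is not reported here. Of the marker lists, T or NK (5 of 6 names found), B (3 of 4), cholangiocyte and neutrophil markers are not described further above. They summed to at most 32.5, 6.26, 32.2 and 5.12 CPM in any class and library.

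Alternatives were other mt limits, minimum UMIs and genes per barcode (a minimum of 3000 or 4578 UMIs was added after seeing the data), omission of barcodes with non-hepatocyte markers or shared sequences, other scalings, equal weight per barcode, other filters and a pseudocount of 10 CPM. Coordinates came from GENCODE M21, in which all 93 members were matched by identifier, and promoters from RefSeq. In Poisson counts simulated for each class, 95.4%, 95.8% and 95.6% of the intervals held the true ratio for 3888, 5009 and 4513 genes. Such counts meet the assumption of the intervals. The simulation therefore checked the code only, and not the spread between barcodes or mice. Python 3.11.15, NumPy 2.4.6, SciPy 1.17.1, pandas 2.3.3 and edgeR 4.0.16 (TMM only) were used.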

Additional observations from a re-analysis of the deposited data

How the results depend on the processing

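With 1 library per group the spread between mice is unknown, and depth limits the rare genes, such as Cox6b2 at 0 h and mt-Nd6 and mt-Atp8 in low-mt barcodes at 48 h. No paired analysis was possible because each group held 1 library. The nuclear OXPHOS log2 ratio stayed above 0 in each class under each alternative (0.60 to 0.95 in low-mt, 0.32 to 0.999 in intermediate and 0.47 to 1.05 in high-mt barcodes). The values that left their counting intervals, with the cause not tested, were as follows. In low-mt barcodes it was 0.88 with a lower limit of 5%, 0.93 without the 5% deepest barcodes, 0.60 with TMM, 0.71 without the 20 most abundant genes in the total, 0.93 as a mean over single barcodes, and 0.92 and 0.72 with at least 3000 and 4578 UMIs per barcode, 2 alternatives chosen after seeing the data. In intermediate barcodes it was 0.57 and 0.77 with lower limits of 1% and 5%, 0.59 and 0.82 with upper limits of 20% and 50%, 0.65 with minimum UMIs and genes, 0.64 without the deepest barcodes, 0.58 on all UMIs, 0.32 with TMM, 0.44 without the 20 genes, 0.64 over single barcodes, and 0.89 and 0.999 with at least 3000 and 4578 UMIs. In high-mt barcodes it was 0.995 and 1.01 with the upper limits of 20% and 50%, 1.002 with minimum UMIs and genes, 0.77 on all UMIs, 0.47 with TMM, 0.78 without the 20 genes, 1.05 over single barcodes, and 1.01 and 1.005 with at least 3000 and 4578 UMIs.

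The mt complex I share differed by 2.04 percentage points in low-mt barcodes with a lower limit of 5% and by 4.05 and 5.05 points with at least 3000 and 4578 UMIs, against 3.23. In intermediate barcodes, against 1.17, it differed by 0.906 and 1.65 points with lower limits of 1% and 5%, by -0.33 and 3.78 points with upper limits of 20% and 50%, by 1.36 points without barcodes with non-hepatocyte markers, by -0.36 points over single barcodes, and by 1.91 and 2.05 points with at least 3000 and 4578 UMIs. The mt complex III share reversed there to -0.059 points with the upper limit of 20% and to -0.54 points over single barcodes, and the mt complex IV share to 0.60 points over single barcodes. In high-mt barcodes the mt complex III share reversed to -0.0015 and -0.49 points with at least 3000 and 4578 UMIs. In high-mt barcodes complex I gave 4.05 points with the upper limit of 20%, 4.03 with minimum UMIs and genes, 3.92 without the deepest barcodes, 3.499 over single barcodes, 3.75 and 3.31 with at least 3000 and 4578 UMIs, and 4.36 without mt-Nd6, mt-Atp8 and mt-Nd4l, against 4.18.

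Members at least 1.5-fold higher numbered 24 in intermediate and 35 in high-mt barcodes with TMM, beside 24.7% and 25.9% of all genes. Members at least 1.5-fold lower numbered 2 with TMM, 2 without the 20 genes and 1 without a level filter in intermediate barcodes. In high-mt barcodes they numbered 2 on all UMIs, 3 with TMM, 2 without the 20 genes, 0 at a mean of at least 50 CPM and 0 with 10 CPM added.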
